A study of Mus musculus with 16 samples.

Results

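Plin3, Cideb and Cidec, which encode 3 proteins of cytosolic lipid droplets, were followed in RNA sequencing libraries of mouse duodenal epithelium. They were picked by gene name from the authors' deposited table, where all 3 were found among 2438 genes. The knockout mice lacked Ephb4 in intestinal epithelial cells (KO, 7 libraries), and the mice they were set against carried floxed Ephb4 alleles (fl/fl, written flox here, 9 libraries). All were put on a high fat diet at 8 weeks of age and stayed on it for 19 weeks, so no library shows either genotype on a control diet. The sources used here name no recombinase driver, strain or sex. The samples are labelled as duodenal epithelium, and the series text calls them proximal small intestine. The comparison asks how transcripts of the proximal intestine differ on this diet when the epithelium lacks this receptor tyrosine kinase.

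After a fatty meal, enterocytes re-esterify absorbed fatty acids in the endoplasmic reticulum. The triglyceride leaves on chylomicrons or is held for a time in cytosolic droplets. Perilipin 3 is a soluble coat protein that binds young droplets. CIDEC gathers at contacts between droplets and promotes transfer of lipid into the larger one, a role best known from mouse adipocytes. CIDEB, a relative of CIDEC, is found on the endoplasmic reticulum and on droplets, and is known from mouse liver for loading lipid onto secreted lipoproteins.

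The promoter windows of the 3 genes are shown because their transcripts moved in the same direction. They are from RefSeq (GRCm38.p6) and run 5′ to 3′ along each gene's own strand, from 250 bases before to 50 bases after a start site. All 3 genes lie on the minus strand. The capitals mark matches, on either strand, to 7 short motifs. These were the nuclear receptor site AGGTCA, the core TTTATG that CDX2 binds, the GC box GGGCGG, the CCAAT box, the TATA box spelled TATAAA, the E-box CACGTG and the cAMP response core TGACGT.
Plin3 (chr17:56290462-56290761): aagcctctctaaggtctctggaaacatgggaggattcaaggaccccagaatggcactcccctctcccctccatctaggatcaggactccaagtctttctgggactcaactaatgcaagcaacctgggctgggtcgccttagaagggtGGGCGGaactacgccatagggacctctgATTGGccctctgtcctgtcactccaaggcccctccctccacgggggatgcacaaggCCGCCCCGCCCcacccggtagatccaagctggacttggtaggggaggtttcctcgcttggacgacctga
Cideb (chr14:55758375-55758674): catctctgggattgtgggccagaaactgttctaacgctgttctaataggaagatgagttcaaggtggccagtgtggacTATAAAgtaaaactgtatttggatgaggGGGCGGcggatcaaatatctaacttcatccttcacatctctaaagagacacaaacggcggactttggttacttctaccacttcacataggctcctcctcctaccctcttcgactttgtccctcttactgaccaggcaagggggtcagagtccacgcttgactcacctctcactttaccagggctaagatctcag
Cidec (chr6:113435711-113436010): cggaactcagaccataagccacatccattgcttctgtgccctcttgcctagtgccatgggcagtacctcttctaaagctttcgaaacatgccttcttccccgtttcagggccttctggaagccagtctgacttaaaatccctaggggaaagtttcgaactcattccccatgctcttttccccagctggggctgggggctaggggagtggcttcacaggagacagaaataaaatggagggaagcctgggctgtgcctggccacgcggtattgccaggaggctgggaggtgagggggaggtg

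The Plin3 window held 3 GC boxes, the nearest beginning 14 bases before the start site and sharing a base with the next, and 1 CCAAT. This window lies inside the annotated gene, whose 5′ end is upstream at 56292873, and the sequence at that end was not searched. The Cideb window held 1 GC box and 1 TATAAA beginning 172 bases before the start site. No motif of the 7 was found in the Cidec window or in that of a second Cidec start (chr6:113434715-113435014). Among 32851 mouse promoter windows of the same length, 35.7% held the GC box, 37.4% the CCAAT box, 13.6% the TATA box and 16.3% the nuclear receptor site. The shares were 11.9% for the CDX2 core, 7.15% for the E-box and 7.51% for the cAMP response core. A match is only a run of letters, and a window without one says nothing of the factor. GC content was 59.3% in the Plin3 window, 48.0% in that of Cideb and 55.7% in that of Cidec, against a median of 52.7%. Counts were per gene, so the 2 Cidec starts could not be told apart.

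The libraries also differed in read numbers, in Ephb4 and in markers of several cell types. Whether the marker differences came from the genotype was not tested. The listed genes took 3592468 to 4555872 reads per library in KO and 4237178 to 5316273 in flox. Full library totals are unknown. Ephb4 had 36.6 ± 21.7 normalised counts in KO (SD, n = 7) and 210.5 ± 94.4 in flox (SD, n = 9), with no overlap. Of 18 enterocyte markers 9 were listed, with Fabp2 at 85594 normalised counts on average in KO and 114135 in flox. All 9 were listed as lower in KO, a direction in which the authors' table held 7.81% of the genes adjusted over. In limma 6 of the 9 were called lower, against 64.2% of all tested genes listed as lower. The summed level of the 9 was 387057 to 636574 in KO and 593734 to 841588 in flox. For other cell types, 6 of 24 lymphocyte, 2 of 10 mast cell, 3 of 15 stromal and 1 of 13 endothelial markers were listed. All were listed as higher in KO, a direction in which the authors' table held 6.97% of the genes adjusted over. A stromal marker among the 12 averaged under 10 normalised counts and was not tested in limma. Of the others 3 were called higher, against 42.3% of all tested genes listed as higher and 19.2% of all genes tested. Summed marker levels were 761 to 2308 in KO and 644 to 1541 in flox for lymphocytes, and 121 to 1069 in KO and 81.1 to 338 in flox for stroma. The mean log2 level of these 12, the non-epithelial score, was 6.33 ± 0.66 in KO and 5.20 ± 0.40 in flox. Of 27 pancreatic genes 21 were listed, all as lower in KO, against the same 7.81%, and limma called 0 of those it tested. The 21 summed to 403 to 1744 in KO and to 399 to 144704 in flox, where replicates 4, 6, 7, 9 and 10 each exceeded 5000. Of 12 adipocyte markers 0 were listed, so no adipocyte marker had a value to set beside Cidec.

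All 3 transcripts were lower in KO epithelium, by 1.60-fold for Cideb, 1.42-fold for Plin3 and 1.33-fold for Cidec. The deposited table held only genes past the authors' adjusted threshold, so a difference in these libraries was fixed by inclusion. It held 14.8% of the 16488 genes the authors adjusted over, and 7.81% as lower in KO. An own limma fit on log2(normalised count + 1) took in 2339 listed genes averaging 10 or more, with p-values adjusted over 16488 genes. At an adjusted p under 0.05 it called 54.3% of them, 35.1% as lower, and all 3 lipid droplet genes were among those called lower. Every KO library lay below every flox library for 2 of the 3, Plin3 and Cideb, as it did for 5.47% of the 2339. These shares depend on the scaling: with TMM over the listed genes 723 were called higher and 189 lower, against 449 and 820, and Cidec was not called (adjusted p = 0.180). In the main fit the median log2 difference of Plin3, Cideb and Cidec was -0.51, against -0.25 over all genes tested. Abundant listed genes were mostly lower, with a median of -0.35 over the 768 with a mean of at least 1000, of which 65.4% were called lower. Among these 768 Cideb ranked 37th from the lowest difference, Plin3 97th and Cidec 225th.

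**Figure D1:**
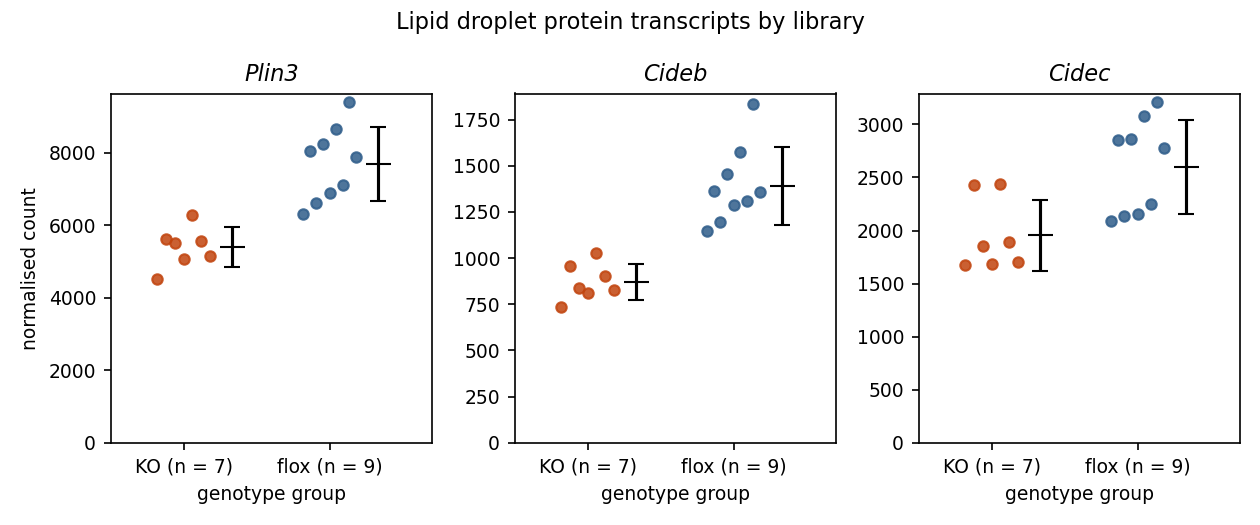
Normalised counts of Plin3, Cideb and Cidec (vertical axes, from 0) in 7 KO and 9 flox libraries, each point a library, with bars for the mean and SD. The groups do not overlap for Plin3 and Cideb, while for Cidec 2 KO libraries lie above the 4 lowest flox libraries.

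Plin3 (ENSMUSG00000024197, chromosome 17, 56277476 to 56292873, GRCm38) is the coat protein of the 3 and had the highest level per kilobase of transcript. Its normalised counts ran from 4519 through a median of 5509 to 6288 in KO, and from 6313 through 7872 to 9392 in flox. The groups met without overlapping, since KO replicate 2 lay 24.8 normalised counts below flox replicate 6. Means were 5393 ± 551 in KO (SD, n = 7) and 7685 ± 1019 in flox (SD, n = 9). The log2 difference was -0.51 ± 0.09 (SE), with an adjusted p of 0.00631 in limma and an exact permutation p of 0.000175 over 11440 splits (two-sided). At 5032 to 9270 reads a library, counting error was small beside the spread between libraries.

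Cideb (ENSMUSG00000022219, chromosome 14, 55754050 to 55758458), the factor of lipoprotein loading, had the largest difference of the 3. Its normalised counts were 735 to 1028 in KO with a median of 838, and 1147 to 1836 in flox with a median of 1356. Every KO library lay below every flox library, with 119 normalised counts between the groups. Such separation was seen in 12.2% of the 768 abundant listed genes. Means were 871 ± 98.5 in KO (SD, n = 7) and 1391 ± 210 in flox (SD, n = 9). The log2 difference was -0.67 ± 0.09 (SE), and limma gave an adjusted p of 0.00117. Its two-sided exact permutation p was 8.74e-05, which is the lowest value possible with 11440 splits.

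The Cideb locus limits what its count measures. In the GENCODE annotation of GRCm38, 1136 of the 1488 exonic bases of Cideb (76.3%) are also exonic in Nop9, a ribosome biogenesis gene on the opposite strand (55745693 to 55755500). The sources used here do not say whether counting used the strand, so reads from this stretch may have been dropped or may belong to Nop9. Nop9 was not listed and has no value here. Plin3 and Cidec shared 0 exonic bases with other annotated genes.

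Cidec (ENSMUSG00000030278, chromosome 6, 113424634 to 113435760), the droplet fusion factor, had the smallest difference and the widest relative spread, with an SD of 17.3% of the mean in KO and 17.0% in flox. In KO, 5 libraries had 1672 to 1896 normalised counts, and replicates 8 and 4 stood above them at 2427 and 2436. In flox, replicates 9, 7, 6 and 5 had 2088, 2138, 2155 and 2246, and the other 5 libraries had 2781 to 3212. The widest gap took 69.5% of the range in KO and 47.6% in flox, against 24.4% to 38.1% for Plin3 and Cideb. Libraries below and above it are called the lower and upper set here. Whether the sets are distinct was not tested. The upper KO set lay above the lower flox set. Means were 1954 ± 337 in KO (SD, n = 7) and 2602 ± 443 in flox (SD, n = 9). The log2 difference was -0.41 ± 0.11 (SE), with an adjusted p of 0.0361 in limma and an exact permutation p of 0.00638 (two-sided). It lost its limma call when KO replicate 1, 2, 3, 5 or 7 or flox replicate 1, 3, 4 or 10 was left out, with adjusted p from 0.0542 to 0.0839. Plin3 and Cideb kept theirs without any 1 library, at 0.00406 to 0.0195 and 0.000609 to 0.00478.

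The authors' deposited table gave log2 fold changes of KO over flox of -0.51 for Plin3, -0.68 for Cideb and -0.41 for Cidec. The adjusted p in the authors' deposited table was 1.49e-05 for Plin3, 3.45e-08 for Cideb and 0.0112 for Cidec. These values and the limma fit rest on the same libraries and are not separate support for each other.

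Several settings ended these calls. Without the 5 flox libraries with pancreatic transcripts, the log2 differences were -0.58 for Plin3, -0.68 for Cideb and -0.50 for Cidec, as large as with them. Their adjusted p in limma were then 0.0527, 0.0527 and 0.106. Quantile normalisation over the listed genes took Plin3 to -0.17 (adjusted p in limma 0.442) and Cidec to -0.081 (1.00). Cideb kept its call at -0.37 (0.0192). The listed genes had all been selected for a difference, and this scaling took their median log2 difference from -0.25 to 0.006. A difference shared by many of these genes is thus scaled away in part, so these values cannot tell whether the calls are weak. When the fit carried the non-epithelial score as a covariate, the differences were -0.36, -0.51 and -0.41, and the adjusted p in limma were 1.00, 0.934 and 1.00. The 12 markers of that score had been listed for a difference in these libraries, so it is no neutral covariate and partly follows genotype. With it 7 of the 2339 genes were called, against 1269 without it, and the SE for Plin3 was 0.128 against 0.089. In the main fit the differences were -0.51 for Plin3, -0.67 for Cideb and -0.41 for Cidec. No reading on cell composition is taken from the lost calls or from these values. The part of other cell types in the differences was not tested. In such bulk libraries, fewer enterocytes and less RNA per enterocyte cannot be told apart.

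Against other enterocyte transcripts of the same library, none of the 3 genes passed an exact permutation test, which does not show that they were equal. The mean log2 level of the 9 listed enterocyte markers was 14.95 ± 0.21 in KO and 15.46 ± 0.17 in flox. These markers had been selected for a difference in these libraries, so they are no neutral standard. Minus that mean, Plin3 was -2.56 ± 0.20 log2 units in KO and -2.57 ± 0.11 in flox. The difference was 0.01 ± 0.09 (SE), and the exact permutation p was 0.913. Cideb was -5.19 ± 0.14 in KO and -5.04 ± 0.18 in flox, a difference of -0.15 ± 0.08 (SE) with an exact permutation p of 0.0807. Cidec was -4.03 ± 0.16 in KO and -4.14 ± 0.20 in flox, a difference of 0.10 ± 0.09 (SE) with an exact permutation p of 0.291.

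**Figure D2:**
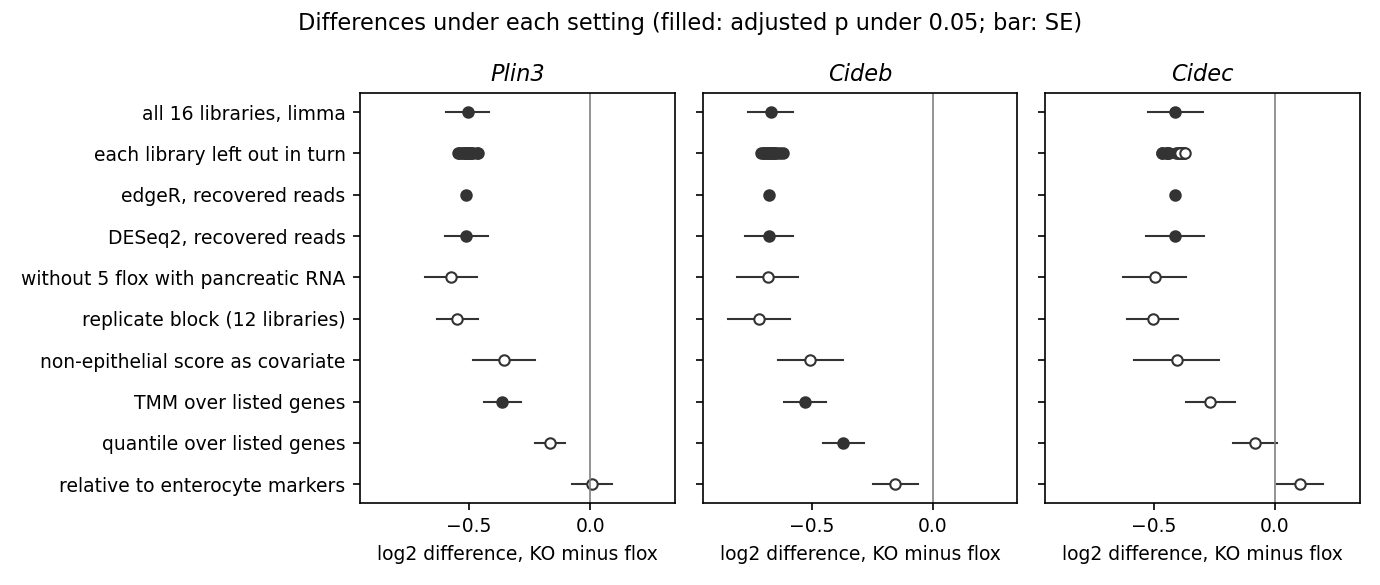
Log2 difference of KO minus flox (horizontal axes) for Plin3, Cideb and Cidec under each setting, with points filled where the adjusted p was under 0.05 and bars for SE (not drawn for edgeR and the fits without 1 library). Relative to enterocyte markers the differences are 0.01, -0.15 and 0.10.

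Levels between the genes were compared per kilobase of transcript. Plin3 had 1424 ± 146 normalised counts per kilobase in KO and 2030 ± 269 in flox. Cidec had 1053 ± 182 per kilobase in KO and 1402 ± 239 in flox, and Cideb had 586 ± 66.2 in KO and 935 ± 141 in flox. The order Plin3, Cidec, Cideb held within each of the 7 KO and 9 flox libraries when all exonic bases of each gene were counted as its length. If reads in the stretch shared with Nop9 were dropped, the Cideb level per kilobase is too low and its place in the order may differ, which was not tested. Across libraries the levels of neighbours in that order overlapped in part. In KO the lowest Plin3 level was 1194 per kilobase and the highest Cidec level 1313, and in flox they were 1667 and 1730. The lowest Cidec and highest Cideb levels were 901 and 691 in KO and 1125 and 1234 in flox, so this pair overlapped in flox only.

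Ratios within a library, in which the size factor cancels, tested whether the genes changed by different amounts. The log2 ratio of Cidec over Cideb was 1.15 ± 0.14 in KO and 0.90 ± 0.31 in flox. It differed by 0.26 ± 0.11 (SE), with an exact permutation p of 0.0583 and 0.175 when adjusted over the 3 pairs. Cideb over Plin3 was -2.63 ± 0.12 in KO and -2.47 ± 0.25 in flox, a difference of -0.16 ± 0.09 (SE) with an exact permutation p of 0.134 and 0.202 when adjusted. Cidec over Plin3 was -1.48 ± 0.25 in KO and -1.57 ± 0.10 in flox, a difference of 0.09 ± 0.10 (SE) with an exact permutation p of 0.311. None of the 3 pairs passed, which does not show that the genes changed alike.

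**Figure D3:**
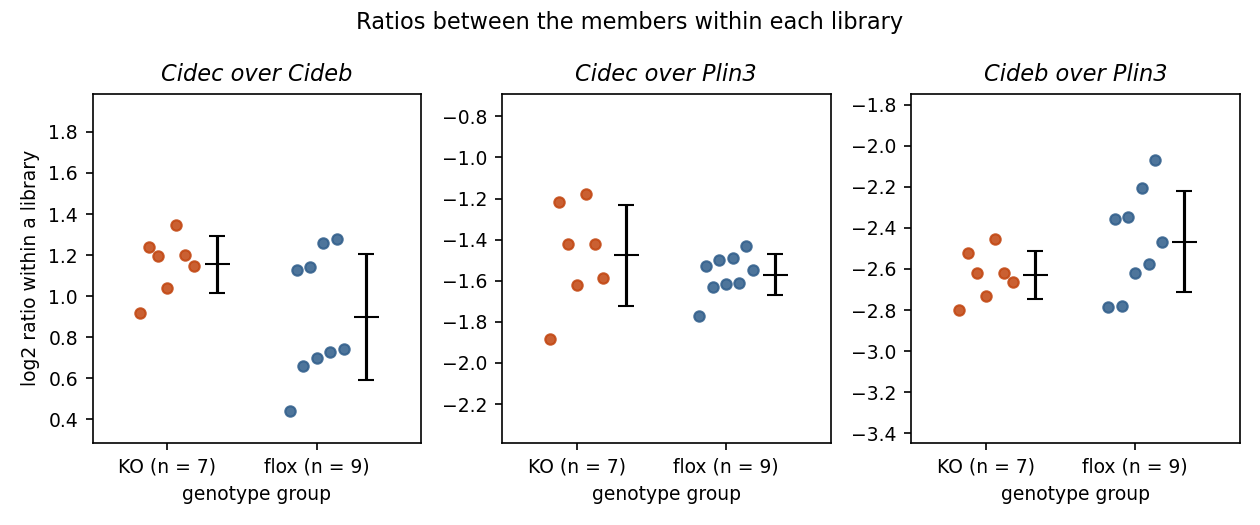
Log2 ratio between members within each library (vertical axes) for 3 pairs of genes in 7 KO and 9 flox libraries, shown as points, with bars for the mean and SD. The groups overlap for each pair, and Cidec over Cideb splits the flox libraries into a set of 5 at 0.44 to 0.74 and a set of 4 at 1.13 to 1.28.

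The pattern across libraries of 1 genotype differed from gene to gene. In flox, the 4 libraries lowest in Cidec (replicates 5, 6, 7 and 9) were also the 4 lowest in Plin3, at 6313 to 7122 normalised counts against 7872 to 9392 in the others. The same 4 held the highest Ephb4 counts, 230.9 to 353.8, and the other 5 held 102.7 to 161.8. Cideb did not follow this order, since these 4 had 1286 to 1573 and the other 5 had 1147 to 1836. Replicates 6, 7 and 9 of the lower set carried pancreatic transcripts and replicate 5 did not. In the upper set replicates 4 and 10 carried them. The lower and upper flox sets were picked from the Cidec counts. How many listed genes part the same libraries was not counted, so no link of Ephb4 with these genes is read from the sets. In KO, replicates 4 and 8, highest in Cidec, were also the 2 highest in Cideb, at 958 and 1028, but for Plin3, at 5509 and 5635, both lay below replicate 2 at 6288. Because the Cidec counts had a wide gap in each group, no correlation of Cidec with Plin3 or Cideb is given. Plin3 and Cideb had a Pearson r of 0.72 in KO (n = 7, exact permutation p of 0.0716) and of 0.24 in flox (n = 9, permutation p of 0.543). Spearman's rho was 0.79 in KO (exact permutation p of 0.0480) and 0.07 in flox (permutation p of 0.878). Adjusted over these 2 relations, and not over the 6 first planned, the smallest permutation p was 0.0960. Without the 2 libraries farthest from the median of Plin3, r was 0.74 in KO and -0.40 in flox.

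**Figure D4:**
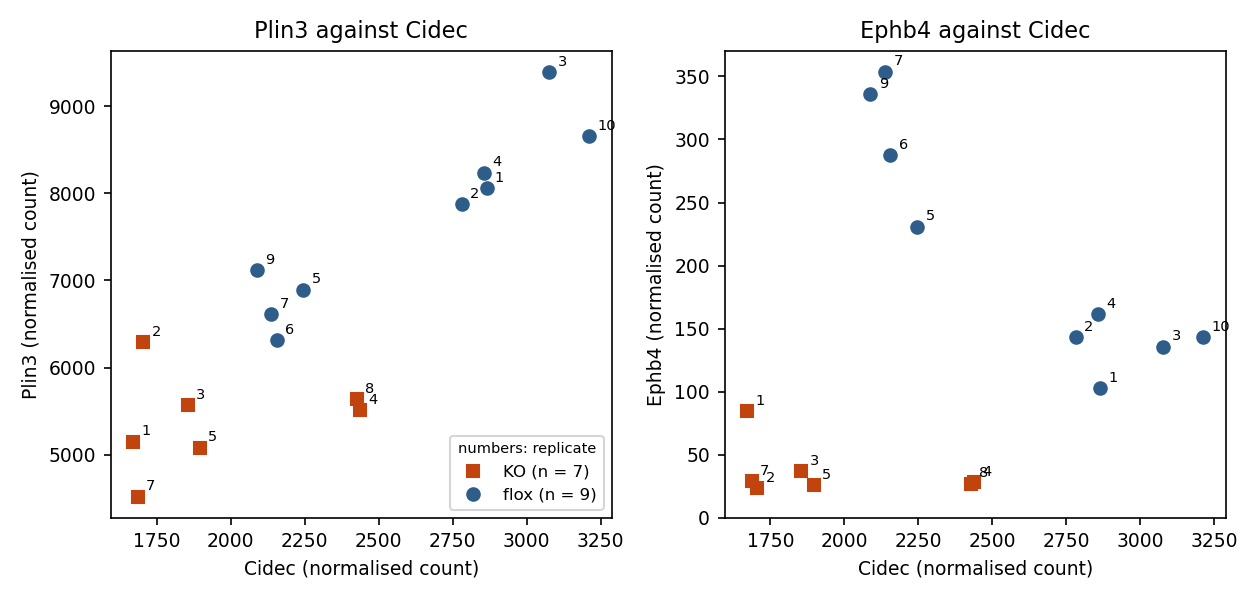
Plin3 (left) and Ephb4 (right) against Cidec, all in normalised counts, with KO libraries as squares, flox libraries as circles and replicate numbers beside them. Flox replicates 5, 6, 7 and 9, picked as the lowest in Cidec, lie at 2088 to 2246 for Cidec and 230.9 to 353.8 for Ephb4. How many other genes part the same libraries was not counted.

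The genes most like each member were ranked by Pearson r over the 16 libraries after subtraction of the group means, among 1955 listed genes averaging 50 or more. For Plin3 these were Slc16a3, a monocarboxylate transporter (0.85), the actin nucleation subunit Arpc1b (0.84), Mon1a (0.84), the brush border scaffold Pdzk1 (0.84) and Spryd3 (0.83). For Cidec they were Gnai2, an inhibitory G protein subunit (0.90), Pdlim2 (0.90), Gpr107 (0.89), Castor2 (0.88) and the enterocyte keratin Krt20 (0.88). For Cideb they were the kinase gene Gsk3a (0.79), Atxn7l3 (0.76), Ugt1a7c, a glucuronosyltransferase (0.76), 2610528J11Rik (0.75) and the water channel Aqp3 (0.73). These values only rank genes. For Cidec they are taken over libraries with a wide gap between them, at 69.5% of the range in KO and 47.6% in flox. A gene that splits the same libraries therefore ranks high.

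Some genes that act around the droplet fell as well. Their lists were drawn up with results of these libraries known. Of 12 droplet coat and CIDE genes only these 3 were listed. Plin1, Plin2, Plin4, Plin5, Cidea, Hilpda, G0s2, Abhd5 and Rab18 were not, and either missed the authors' threshold or were not tested by them. Of 24 genes of droplet formation and size 4 were listed as lower and 1 as higher, and the 4 lower ones passed limma. Dgat2, which makes triglyceride at the endoplasmic reticulum and on droplets, had 13369 ± 3987 normalised counts in KO (SD, n = 7) and 20404 ± 5072 in flox (SD, n = 9). The acyltransferase Dgat1 was 1.27-fold and the phosphatidate phosphatase Lpin3 1.30-fold lower. Lpcat1, which remodels phosphatidylcholine, had 58.8 ± 28.6 in KO and 28.3 ± 11.4 in flox, and its adjusted p in limma was 0.0759.

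Of 14 genes in a lipolysis list 4 were listed, all lower, and 3 passed limma. These were hormone-sensitive lipase Lipe (1.27-fold), the monoacylglycerol lipase Abhd6 (1.26-fold) and Pla2g12b (1.33-fold), a secreted phospholipase family member needed for lipoprotein secretion in mouse liver. Pla2g12b was counted in this list, but no part in lipolysis is claimed for it. Pnpla2, the triglyceride lipase that opens droplet breakdown, had 2812 ± 488 in KO and 3543 ± 595 in flox, and its adjusted p in limma was 0.0786.

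Of 17 transcription factors of lipid genes 5 were listed, all lower, and 5 passed limma. Klf15 had 84.6 ± 28.8 in KO and 163.5 ± 56.3 in flox. The orphan receptor Esrra was 1.57-fold lower, the membrane-bound factor Creb3l3 1.38-fold and Rxra, the partner of many lipid-sensing nuclear receptors, 1.34-fold. Ppara, Pparg and Hnf4a were not listed. Of 25 genes known as targets of PPAR alpha, Cidec included, 12 were listed, all lower, and 9 passed limma. Fabp1, a fatty acid carrier, was 1.95-fold lower and the thiolase Acaa1a 1.49-fold lower. Cd36, a fatty acid receptor, had 1569 ± 685 in KO and 2475 ± 784 in flox, and its adjusted p in limma was 0.0956. Vnn1, a pantetheinase, had 790 ± 149 in KO and 1140 ± 378 in flox, and its adjusted p in limma was 0.0982. The lists overlap, and the shares listed read against 14.8% over the authors' genes, or 7.81% for genes listed as lower. Of all tested genes listed as lower, limma called 64.2%. Beside it stand 4 of 4 for droplet formation, 5 of 5 for transcription factors and 9 of 12 for PPAR alpha targets. For the lipolysis list, Pla2g12b included, it was 3 of 4. Nothing particular to these lists is read from them. These counts were not tested against genes of like abundance.

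**Figure D5:**
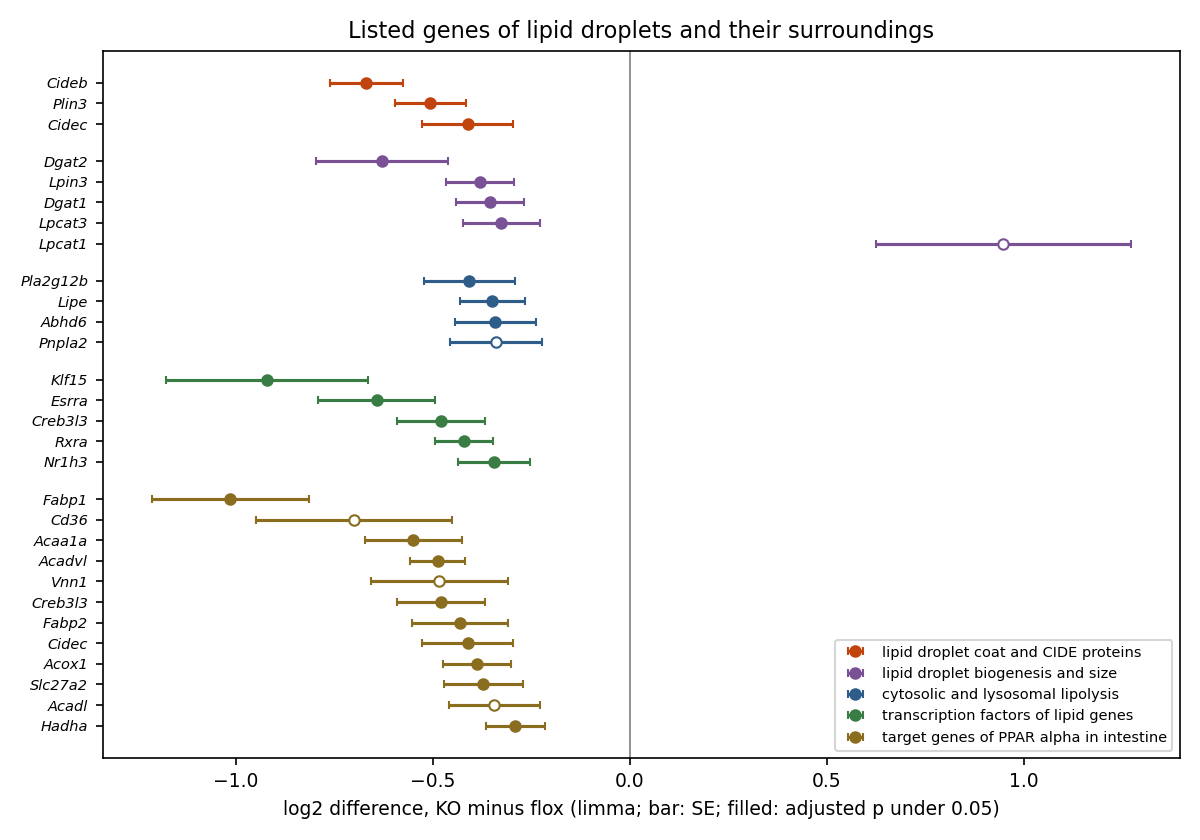
Log2 difference of KO minus flox in limma (horizontal axis; bars, SE) for listed genes of the droplet coat, droplet formation, lipolysis, transcription factor and PPAR alpha target lists, with points filled where the adjusted p was under 0.05. All but Lpcat1 lie below 0, and Pnpla2, Acadl, Vnn1, Cd36 and Lpcat1 are open.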

How the data were processed

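RNA was poly-A selected and sequenced from 16 libraries of duodenal epithelium, per the labels' protocols. The submitters' processing notes name GRCm38 (mm10), DESeq2 1.20.0, HISAT2 2.0.5 and featureCounts 1.5.0-p3, without settings. The deposited signal of each library is a gene count divided by 1 size factor, called the normalised count here. Dividing by the value of 1 read gave whole reads for 100% of values in each library (tolerance 0.0001). KO replicates 1 and 3 could not be tested by an automatic check of this step. The log2 fold change, p-value and adjusted p of KO over flox are the authors' own, per the file headers, and the largest adjusted p is 0.0497. From these p-values, the adjustment ran over 16488 genes.

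The own fit used limma 3.58.1 with trended, robust moderation on log2(normalised count + 1) for genes with a mean of at least 10. Benjamini-Hochberg adjustment ran over 16488 genes with unlisted genes at a p of 1. Fold changes on this scale understate changes of low genes. Single values were compared by exact permutation over 11440 splits (two-sided). On recovered reads, edgeR 4.0.16 called 1328 and DESeq2 1.42.0 called 2112 of 2339 genes. Counts were simulated for 2339 genes of KO over flox, 2139 of them unchanged. In these limma found 49.3% of changes of 1.5-fold and 76.1% of changes of 2-fold, and called 0% of unchanged genes. DESeq2 found 61.2% and 82.1%, and called 0.234% of unchanged genes. The listed genes had all been selected for a difference, so these shares do not carry over to them.

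The 3 members, the gene lists and the tests were chosen with earlier results of these data known. The named genes are Ephb4, the members, up to 4 listed genes per lipid list by largest change, and the 5 genes most like each member. Ppara, Pparg, Hnf4a, Nop9 and Fabp2 were named beside this rule. Marker lists served only to describe the libraries. No 2 libraries of a group were duplicates, with chi-square per degree of freedom of at least 17.3 between reads. The series text gives 7 KO and 9 flox mice, as many as the libraries, but no label ties a library to a mouse. No batch is given in the labels. Of 6 correlations between members, 2 are given, since the Cidec counts had a wide gap in each group.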

Additional observations from a re-analysis of the deposited data

Results flagged for a closer look

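Across 58 tests of a gene, ratio or marker sum in 1 group, 9 had a library far from the others of its group, where chance gives about 1 in 20. Ephb4 was 84.7 normalised counts in KO replicate 1, with the next KO library at 37.3. In the same library Rxra was 2444, the lowest in KO with the next at 2880, and summed stromal markers were 1069, with the next at 444. Summed pancreatic markers were 1744 in KO replicate 7, with the next at 878, and 144704 in flox replicate 10, with the next at 38851. Flox replicate 10 also held the highest Dgat2 count, at 32251 with the next at 22204. In flox replicate 2 summed lymphocyte markers were 1541, stromal markers 338 and endothelial markers 95.6, with the next flox libraries at 1074, 188 and 52.6. Plin3, Cideb, Cidec and the ratios between them had no such library in either group.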

How the results depend on the processing

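The limma fit called 1269 listed genes, 449 higher and 820 lower in KO. Leaving out 1 library gave 518 to 1458, and the count moved by over 1.5 times without KO replicate 7 (518), 5 (622) or 1 (645) or flox replicate 3 (615), 10 (646) or 4 (838). The count was 7 with the non-epithelial covariate, and 11 without the 5 flox libraries with pancreatic transcripts (chosen after seeing the data). It was 357 with quantile normalisation over the listed genes, and 2112 in DESeq2 on recovered reads. edgeR on recovered reads without KO replicates 1 and 3, also added after seeing the data, called 354, and DESeq2 called 1157. TMM scaling over the listed genes moved the median log2 difference from -0.25 to -0.11 and made the split 723 higher and 189 lower.

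The non-epithelial covariate ended the calls of all 3 genes, at -0.36 for Plin3, -0.51 for Cideb and -0.41 for Cidec, and so did leaving out the pancreatic flox libraries, at -0.58, -0.68 and -0.50. Relative to enterocyte markers Plin3 was 0.0088 ± 0.083 and Cidec 0.10 ± 0.094 (limma SE), neither called in either direction. Cideb was -0.15 there, also without a call. Quantile normalisation over the listed genes ended the calls of Plin3 (-0.17) and Cidec (-0.081), and TMM over the listed genes that of Cidec (-0.27). Both scale to genes that had been selected for a difference. Without 1 library Cidec ran from -0.47 to -0.37, and without KO replicates 1 and 3 it was -0.36 in edgeR and DESeq2, not called. Without those 2 libraries Plin3 kept its call (adjusted p 0.0341 in edgeR and 0.000463 in DESeq2). So did Cideb (adjusted p 0.0222 in edgeR and 1.60e-05 in DESeq2). Beyond fewer libraries in some settings, a covariate built from listed genes and scaling over listed genes, the cause was not tested. Both pseudocounts changed no call, and the 3 ratios kept their direction with adjusted p above 0.05 in every setting run for them.

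Of the replicate numbers, 6 occur in both groups, but same-numbered libraries did not deviate together (correlations from -0.43 to 0.37, and 1 of 6 KO libraries correlated best with its own number). With the replicate block on those 12 libraries 9 genes were called, and Plin3 was -0.55, Cideb -0.72 and Cidec -0.50, none called. Depth limits are small for the 3 genes, but whole-library depth is unknown.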
